A study of Mus musculus with 3 samples.

Results

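The insulin-like growth factor (IGF) axis was followed through the soft palate of the E14.5 mouse embryo by 9 genes: the ligand *Igf1*, the receptors *Igf1r* and *Igf2r*, the binding proteins *Igfbp2*, *Igfbp3*, *Igfbp4* and *Igfbp5*, and *Igfbp7* and *Kazald1*, which are related to the binding proteins. The genes were found by their symbols among the 32285 genes of the count matrices, and all 9 were present. In GRCm38 *Igf1* (ENSMUSG00000020053) lies at chr10:87858265-87937042, *Igfbp3* (ENSMUSG00000020427) at chr11:7206086-7213923 and *Kazald1* (ENSMUSG00000025213) at chr19:45075241-45079289. The study asked how TGF-β signaling in palatal mesenchyme bears on the development of the pharyngeal muscles. Single cells from the posterior part of the palate were profiled with 10x Genomics 3′ chemistry in 2 libraries of control embryos and 1 of *Osr2-Cre;Tgfbr1* fl/fl embryos, all on a C57BL/6 background. *Osr2-Cre* deletes the floxed receptor gene *Tgfbr1*, also known as *Alk5* in palatal mesenchyme. The labels name the 2 control libraries only as control. For its mutant mice the study describes *Tgfbr1* fl/fl or fl/+ littermates as controls, which therefore carry floxed alleles as well. The number of embryos behind a library is not given in the sources used here, and sex was not considered.

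IGF1 and IGF2 act through IGF1R, a receptor tyrosine kinase that drives growth, survival and differentiation in many embryonic tissues, skeletal muscle among them. IGF2R, the mannose 6-phosphate receptor, takes up IGF2 and delivers it to lysosomes. The IGFBPs are secreted proteins that bind IGFs with high affinity and hold them back from, or bring them to, the receptor, and *Igfbp3* is a known TGF-β-responsive gene in several cell types. IGFBP7 and KAZALD1 share the N-terminal IGFBP domain, and *Kazald1* is known from developing bone.

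After filtering, 2058, 3689 and 7514 cells were kept in control 1, control 2 and the mutant, from totals of 22624711, 27814907 and 63505144 UMIs. Cells were sorted by marker genes, and a gene's level is its summed count in a cell type and library per 1000000 UMIs of those cells (CPM). Palatal mesenchymal cells, which had at least 2 of 6 markers (*Runx2*, *Twist1*, *Twist2*, *Pdgfra*, *Msx1*, *Prrx1*), numbered 1171, 1936 and 3389, or 56.9%, 52.5% and 45.1% of the cells. The share of cells that passed no gate was 14.6%, 25.9% and 28.1%, in the order control 1, control 2, mutant, which is used for all triplets of values below. The 3 libraries shared at most 1.21% of their barcodes. *Tgfbr1* was counted at 55.6, 61.6 and 47.6 CPM in mesenchymal cells. Tags at the 3′ end do not show whether a counted transcript lacks the deleted part, so this level does not check the deletion. Intervals below are exact 95% intervals and cover counting error only.

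In mesenchymal cells *Igf1*, *Igfbp2*, *Igfbp3* and *Igfbp4* lay below both controls in the mutant, and *Igfbp5* and *Kazald1* lay above them. The 250 bases in front of a RefSeq start (GRCm38.p6) are shown for *Igfbp2* and *Igfbp3*, the genes of the first group past the 1.5-fold rule used below, and for both genes of the second, so that the sequence in front of genes on opposite sides of the controls can be compared. Capitals mark AGAC and its reverse complement GTCT, the short core that SMAD proteins, the effectors of TGF-β receptors, can bind.

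*Igfbp3*, chr11:7213924-7214173, minus strand: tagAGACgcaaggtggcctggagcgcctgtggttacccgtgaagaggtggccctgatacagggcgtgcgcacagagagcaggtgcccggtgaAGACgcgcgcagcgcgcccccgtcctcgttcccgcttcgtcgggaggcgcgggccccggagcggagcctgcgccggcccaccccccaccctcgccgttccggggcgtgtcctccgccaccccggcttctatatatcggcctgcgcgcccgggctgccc
*Igfbp2*, chr1:72824230-72824479, plus strand: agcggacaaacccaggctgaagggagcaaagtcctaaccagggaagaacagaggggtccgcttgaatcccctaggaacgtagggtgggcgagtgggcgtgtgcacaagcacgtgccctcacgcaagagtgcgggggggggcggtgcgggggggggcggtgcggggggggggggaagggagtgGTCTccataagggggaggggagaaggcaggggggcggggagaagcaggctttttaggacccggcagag
*Igfbp5*, chr1:72874866-72875115, minus strand: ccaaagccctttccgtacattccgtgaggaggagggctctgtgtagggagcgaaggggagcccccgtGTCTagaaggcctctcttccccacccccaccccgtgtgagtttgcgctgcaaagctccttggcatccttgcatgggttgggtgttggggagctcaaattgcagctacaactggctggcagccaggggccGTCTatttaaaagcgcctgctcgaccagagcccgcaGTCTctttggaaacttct
*Kazald1*, chr19:45074991-45075240, plus strand: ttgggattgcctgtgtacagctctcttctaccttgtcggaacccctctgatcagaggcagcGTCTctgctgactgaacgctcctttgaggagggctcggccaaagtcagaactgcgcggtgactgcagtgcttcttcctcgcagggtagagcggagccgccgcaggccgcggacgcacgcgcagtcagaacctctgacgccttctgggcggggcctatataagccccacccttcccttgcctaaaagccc

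The window held 2 such cores in *Igfbp3*, 1 in *Igfbp2*, 3 in *Igfbp5* and 1 in *Kazald1*. At least 1 core was found in 82.9% of the 32851 promoter windows of this length in the table, with a mean of 1.87 per window. The longer form CAGAC, searched on both strands and overlapping the core, was in none of these 4 windows and in 42.2% of all windows. The palindrome GTCTAGAC was in none of them and in 0.167% of all windows. For *Igfbp2* and *Kazald1* the table holds a second start downstream of the one shown, and the window in front of each (chr1:72825137-72825386 and chr19:45075837-45076086) held 3 cores and 1 CAGAC. A match is a description of the letters, and no binding was measured here.

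*Igf1*, the secreted ligand, was highest by mean among the cell classes in palatal mesenchymal cells, at 429 ± 66.9 CPM (SD, n = 3 libraries). It was measured at 476 (control 1), 460 (control 2) and 353 CPM (mutant). The next class by mean was mural cells at 338 ± 189 CPM, whose range overlapped that of mesenchymal cells. Class differences were tested with edgeR's quasi-likelihood test on the summed counts, with library as a term, over all 11333 genes that passed a filter on low counts, and called at a Benjamini-Hochberg adjusted p under 0.05. *Igf1* was lower in epithelial cells (log2 difference −1.39, SE 0.47, adjusted p = 0.042) and in myogenic cells (−2.00, SE 0.51, adjusted p = 0.0054), both fitted in edgeR against mesenchymal cells. In myogenic cells control 1 stood apart, at 195 CPM against 32.3 in control 2 and 41.4 in the mutant. Without control 2 the edgeR differences were −1.46 in both classes, and neither was called (adjusted p = 0.20 in epithelial and 0.15 in myogenic cells). The epithelial call was also lost with total UMIs (adjusted p = 0.071), with DESeq2 (0.092) and without the library term (0.10). In macrophages *Igf1* was counted at 272, 104 and 159 CPM, and the difference from mesenchymal cells did not pass in edgeR (adjusted p = 0.095). It was called lower in 6 of 14 alternatives.

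Red blood cells, which should not make these secreted factors, give a view of the free RNA in each library. Over the UMIs of these cells other than hemoglobin, *Igf1* stood at 216 (control 1), 482 (control 2) and 264 CPM (mutant). The epithelial levels of 93.4, 188 and 218 CPM were below these values in every library, and on the same scale the mesenchymal levels of 478 and 353 CPM were above them in control 1 and the mutant while that of 461 CPM in control 2 was below. The same held for *Igfbp3* in epithelial cells only in control 2 and the mutant, with 52.7 and 34.5 CPM against 161 and 60.7 in red blood cells. *Igfbp4* in macrophages, at 464, 408 and 364 CPM, was close to the red blood cell values of 444, 455 and 433. The red blood cell values of these 3 genes rest on 2 to 100 UMIs and have wide intervals. A level at or below them is not read as evidence that a class expresses the gene, nor as evidence that it does not. Nor are they a floor for other classes. On the same scale macrophage *Igf1* and *Igfbp3* lay below them in control 2 and the mutant and above them in control 1. The hemoglobin gate overrode the other gates, so cells that also passed another gate stayed among the red blood cells.

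*Igf1r*, the signaling receptor, was measured at 130 ± 22.6 CPM in epithelial, 99.1 ± 18.1 in mesenchymal, 92.7 ± 8.3 in myogenic and 69.6 ± 20.9 in endothelial cells (SD, n = 3 libraries), of which the mesenchymal range overlapped those of epithelial and myogenic cells and the endothelial range, up to 84.6 CPM, lay just below the myogenic range, from 85.6 CPM. Of the epithelial, myogenic, macrophage and endothelial contrasts with mesenchymal cells, the edgeR difference passed in macrophages (log2 difference −1.13, SE 0.24, adjusted p = 0.0012). *Igf2r* was likewise lower in macrophages (−2.01, SE 0.36, adjusted p = 2.9e-04 in edgeR). In epithelial cells the *Igf2r* difference of −0.68 did not pass (adjusted p = 0.055 in edgeR) but was called in 6 of 14 alternatives.

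By mean *Igf2r* was highest in mural cells, at 212 ± 166 CPM (SD, n = 3 libraries), with 24, 9 and 76 cells and no test run. Within the mesenchyme *Igf2r* separated the libraries. It was measured at 118 CPM in the mesenchymal cells of control 2, against 61.8 in control 1 and 72.1 in the mutant, and control 2 was the highest library in 7 of the 7 mesenchymal groups described below. *Igf2*, the ligand that IGF2R clears and an imprinted gene as *Igf2r* is, showed the same order, with 1227 CPM in control 2 against 531 in control 1 and 596 in the mutant. It too was highest in control 2 in 7 of the 7 groups. For both genes the mutant thus lay between the controls in all mesenchymal cells, and no genotype difference was seen beyond the gap between the controls.

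The binding proteins were divided among the classes. *Igfbp5* was highest by mean in epithelial cells, with a range that overlapped that of glial cells (598 ± 330 CPM, SD, n = 3), at 877, 1123 and 955 CPM, and *Igfbp2* stood there at 181, 139 and 207 CPM. Both were higher there than in mesenchymal cells, *Igfbp5* by 1.46 (SE 0.23, adjusted p = 2.3e-04) and *Igfbp2* by 1.36 (SE 0.32, adjusted p = 0.0056) on the log2 scale in edgeR. *Igfbp3* (−1.28), *Igfbp4* (−0.96), *Igfbp7* (−1.09) and *Kazald1* (−1.54) were lower, so that with *Igf1* 2 of the 9 genes were higher and 5 lower in epithelial cells. Of all genes tested, 12.2% were higher and 10.4% lower. Without control 2 the count of called genes was 3 and without the mutant 4, with *Igfbp2* and *Igfbp7* called in neither fit. *Igfbp2* and *Igfbp5* are neighbours on chromosome 1, at chr1:72824503-72852474 on the plus strand and chr1:72857932-72874884 on the minus strand in GRCm38, with their 3′ ends 5.46 kb apart.

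**Figure D1:**
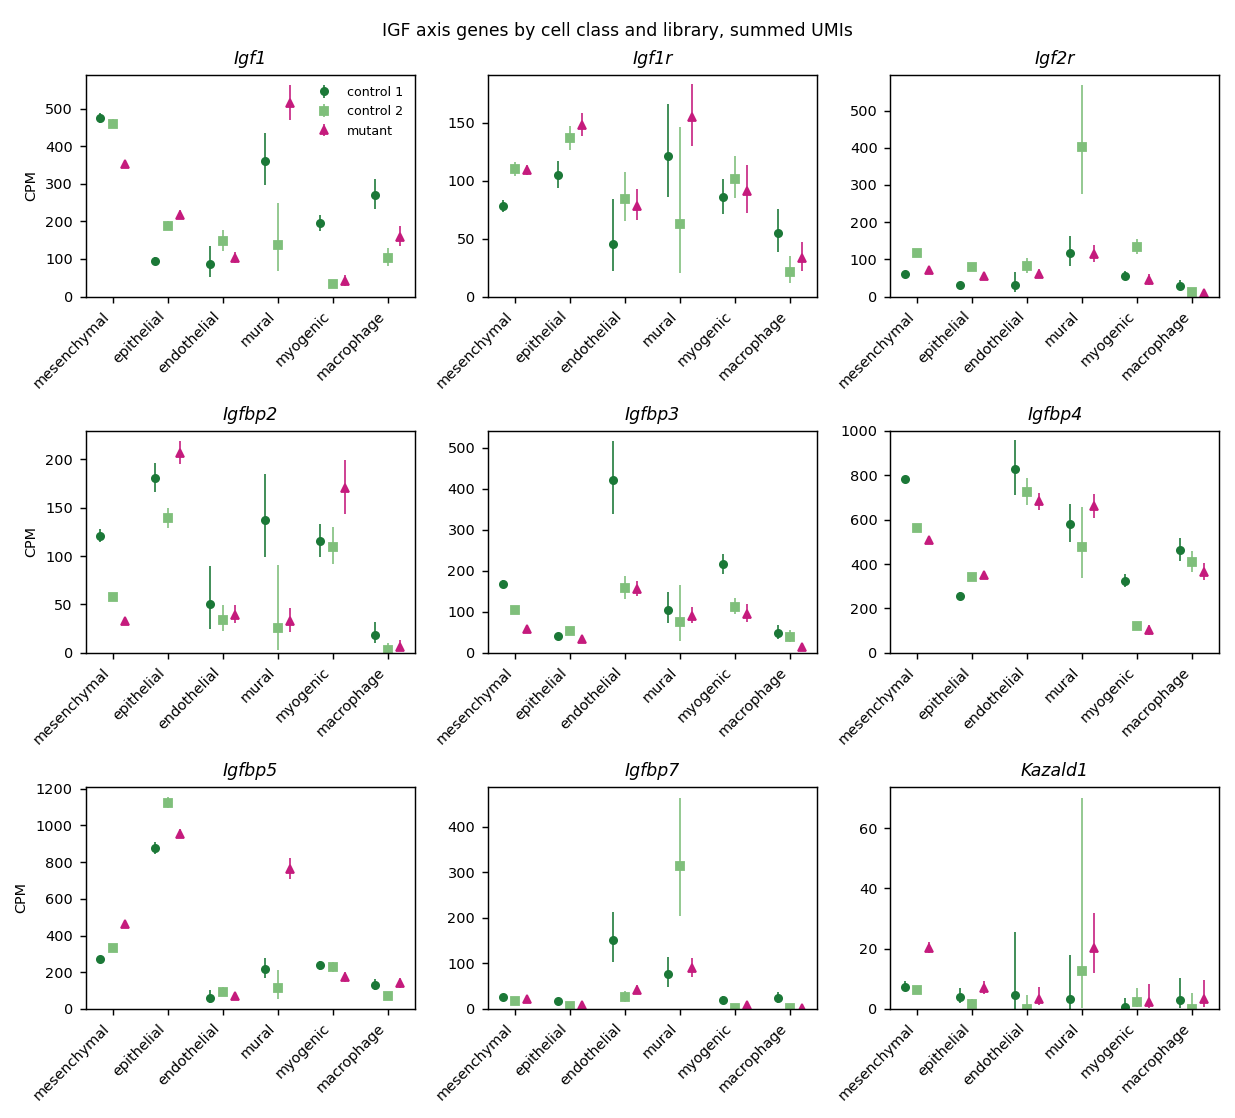
Level of each gene (CPM of summed UMIs) in 6 cell classes, 1 point for each library with its exact 95% Poisson interval, which covers counting error only. *Igfbp5* is highest in epithelial cells in every library, and control 1 stands above the other libraries for *Igfbp3* in endothelial cells. *Igf1* is highest by mean in mesenchymal cells and next in mural cells, whose libraries range from 138 to 515 CPM. Mural cells number 24, 9 and 76 and endothelial cells 19, 83 and 235.

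Myogenic cells, the muscle precursors of the palate, carried *Igfbp2* at 115, 110 and 170 CPM, higher than mesenchymal cells by 1.35 on the log2 scale (SE 0.34, adjusted p = 0.0048 in edgeR). *Igfbp3* was also higher, by 0.74 (SE 0.20, adjusted p = 0.0084), at 216, 112 and 95.4 CPM. The *Igfbp3* call was lost in 7 of 14 alternatives, among them without control 2 (adjusted p = 0.052), without the mutant (0.10), without the library term (0.16), with other gates (0.058 and 0.21) and with cells taken from clusters (0.28) in edgeR. The *Igfbp2* call was lost without control 2 and without the mutant (adjusted p = 0.071 and 0.072). Its edgeR difference without the mutant was 0.78. In control 1 myogenic *Igfbp2*, at 115 CPM, was not above the mesenchymal level of 121 CPM. The mutant mesenchymal level was 32.7 CPM. Scaling bears on *Igfbp3* too: TMM factors move the median of all genes in this contrast by 0.36 relative to total UMIs, and with total UMIs the difference was 0.39 with an adjusted p of 0.15. *Igfbp4* (−1.46) and *Kazald1* (−2.24) were lower, which with *Igf1* made 2 higher and 3 lower genes of 9, where 18.8% and 18.7% of all genes were higher and lower. Without control 2, and without the mutant, 2 genes were called. *Kazald1* was counted in myogenic cells with 1, 3 and 2 UMIs. Macrophages had 0 of the 9 genes higher and 7 lower, against 23.2% and 19.8% of all genes. At an unadjusted p under 0.05, 0 were higher in either edgeR or DESeq2. The 7 were both receptors, *Igfbp2*, *Igfbp3*, *Igfbp5*, *Igfbp7* and *Kazald1*. Without control 2 the count was 4. The shift between the 2 scalings was 0.31 here and turned no direction of the 9 genes.

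Endothelial cells numbered 19 in control 1, 1 under the minimum of 20 for the fit, and were tested with a minimum of 15 chosen after the data had been seen. Among 10221 genes, of which 20.5% were higher and 20% lower, 2 of the 9 were higher: *Igfbp3* by 1.17 (SE 0.24, adjusted p = 3.6e-04) and *Igfbp7* by 1.39 (SE 0.29, adjusted p = 4.2e-04) in edgeR. *Igfbp3* was counted at 421 (control 1), 158 (control 2) and 156 CPM (mutant). *Igfbp7*, a vascular basement membrane protein, was counted at 151, 26.5 and 41.8 CPM, with control 1 far above the others. Without control 1 the edgeR differences were 1.13 for *Igfbp3* and 0.93 for *Igfbp7*, and both were still called (adjusted p = 1.6e-05 and 0.0018). Lower were *Igf1* (−1.80), *Igfbp5* (−2.14, adjusted p = 4.5e-07) and *Kazald1* (−2.56). *Igfbp4* reached 828, 726 and 683 CPM and did not differ past the threshold from mesenchymal cells (0.36, adjusted p = 0.22). With cells taken from clusters the *Igfbp3* difference was 0.85 (adjusted p = 0.074), and with a gate of 2 markers the *Igfbp5* difference was −0.87 (adjusted p = 0.10). In mural cells *Igfbp7* was listed at 76.7, 315 and 89.3 CPM, with no test run, since control 2 held 9 such cells.

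**Figure D2:**
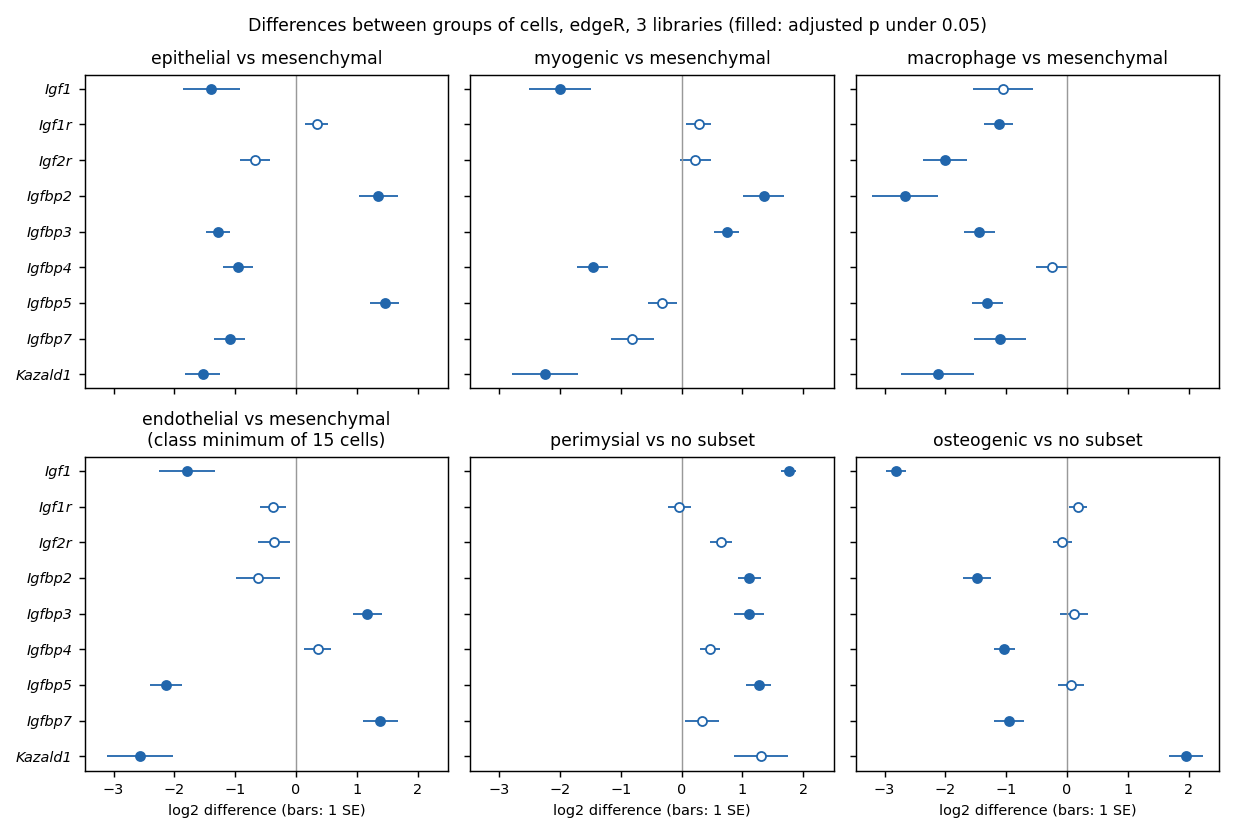
Log2 difference of each gene between a group of cells and its reference, fitted with edgeR over 3 libraries, with bars of 1 SE and filled points for an adjusted p under 0.05. *Igf1* is lower in epithelial, myogenic, endothelial and osteogenic cells and higher in perimysial cells, and *Kazald1* is higher only in the osteogenic panel among the filled points.

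The palatal mesenchyme was next divided by at least 2 UMIs of the markers of a subset: perimysial (*Hic1*, *Ebf2*), midline (*Lsp1*, *Wnt16*, *Sostdc1*), osteogenic (*Sp7*, *Ibsp*, *Ifitm5*), tendon (*Scx*, *Tnmd*) and progenitor (*Tfap2b*, *Eya4*). Cells of no subset and cells that passed several gates complete the 7 groups. Perimysial cells surround the muscle precursors, and they numbered 70, 41 and 60. Of 8 further genes that mark these cells, 5 were above the mesenchymal cells of no subset in every library and 3 in only some of them. *Hic1* itself, which served as a gate, was counted at 55.6, 19.3 and 13.8 CPM in all mesenchymal cells, so the gate does not take the same share of cells in each library.

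Perimysial cells were the richest in *Igf1* among the subsets with at least 20 cells in every library, at 1267 (control 1), 1529 (control 2) and 1310 CPM (mutant). Against mesenchymal cells of no subset, at 394, 479 and 306 CPM, the log2 difference was 1.76 (SE 0.13, adjusted p = 1.9e-09 in edgeR). *Igfbp5* (1.27, SE 0.21, adjusted p = 0.0010), *Igfbp2* (1.11, SE 0.19, adjusted p = 0.0011) and *Igfbp3* (1.11, SE 0.25, adjusted p = 0.017) were higher in the same edgeR fit. In all 4 of the 9 genes were higher and 0 lower, where 1.09% of the 10207 genes tested were higher and 0.402% lower, and 0 were lower at an unadjusted p under 0.05 or by DESeq2. The median log2 difference of the 9 genes was 1.11, and that of all genes was −0.0093. Without the mutant library 2 genes were called, and the *Igfbp3* difference had an adjusted p of 0.19. Without control 2 it was 0.50 with an adjusted p of 0.48. With cells of 2 subsets kept, the *Igfbp2* difference fell to 0.47 with an adjusted p of 0.079, and its call was lost in 5 of 13 alternatives in all.

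Midline cells, a broad gate of 445, 961 and 899 cells, had 0 of the 9 genes called in edgeR, where 0.941% of genes were higher and 0.754% lower. At an unadjusted p under 0.05, 1 gene was higher there and 2 were lower, and DESeq2 also called 0 after adjustment. Osteogenic cells, which form bone and numbered 87, 35 and 260, were nearly the reverse of the perimysial cells for *Igf1*. It was counted there at 62.7, 39.9 and 37.1 CPM, with a log2 difference of −2.81 (SE 0.16, adjusted p = 7.0e-12 in edgeR) from mesenchymal cells of no subset. *Igfbp2* (−1.48), *Igfbp4* (−1.03) and *Igfbp7* (−0.95) were also lower. *Kazald1* was the gene that was higher, by 1.96 (SE 0.27, adjusted p = 1.0e-05), so that 1 gene was higher and 4 lower beside 12.1% and 10.2% of all genes. Without the mutant 3 genes were called. The call for *Kazald1* rested on the mutant library, and with the controls alone the difference was 1.39 with an adjusted p of 0.15. TMM factors shifted the median of all genes by 0.21 in this contrast without turning the direction of a called gene. *Igf1r*, *Igfbp3* and *Igfbp5*, which were not called, had differences of 0.18, 0.12 and 0.061. Their lowest values over the alternatives were −0.029, −0.082 and −0.14, so their direction is not settled.

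The genotypes were compared without a test, since the mutant is 1 library and cells are not replicates. A gene was called where the mutant lay at least 1.5-fold above the higher control or below the lower control, among genes with a mean of at least 10 CPM. In palatal mesenchymal cells 1 of the 9 genes (*Kazald1*, which reached this minimum only through the mutant) was called higher and 2 lower, where 0.972% of the 8435 genes were called higher and 2.93% lower. The median log2 ratio of the 9 genes was −0.25, and that of all genes tested was −0.069.

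*Igfbp3* was the gene that was lower most widely. In mesenchymal cells it was counted at 169 CPM in control 1 (interval 161 to 177), 105 in control 2 (99.6 to 111) and 58.1 in the mutant (55.1 to 61.2). The mutant was 1.81-fold below the lower control, and the log2 ratio to the mean of the controls was −1.20 beside a gap of 0.68 between them. The mutant was below both controls in 7 of the 7 mesenchymal groups and past the 1.5-fold rule in 6 of them, the exception being progenitor cells. Here and for the genes below the groups are parts of the same 3 libraries, so counts over them are not repeated support. Among the 7 groups the share of all genes called was taken for perimysial cells only, at 6.28% higher and 12.9% lower. Tendon cells passed on 2, 13 and 22 UMIs. Mesenchymal cells of no subset carried 181, 91.3 and 39.7 CPM, midline cells 121, 80.9 and 42.0, and osteogenic cells 141, 97.0 and 42.5. Non-dividing mesenchymal cells held 179, 111 and 54.9 CPM and dividing cells 144, 94.2 and 64.0. Control 1 was the highest library in 5 of the 7 mesenchymal groups and control 2 in the other two, perimysial and tendon cells. At an equal depth of 2000 UMIs per cell, 21.5%, 15.0% and 8.52% of mesenchymal cells had an *Igfbp3* UMI, against 0%, 13.3% and 3.51% of 23, 15 and 57 red blood cells. Per UMIs other than hemoglobin, mesenchymal *Igfbp3* at 169, 105 and 58.2 CPM compares with 25.4, 161 and 60.7 in red blood cells, so that it lay below the red blood cell level in control 2 and in the mutant. The red blood cell levels rest on 2, 6 and 14 UMIs, with intervals of 3.08 to 91.7, 59.0 to 350 and 33.2 to 102 CPM. Macrophages on the same scale held 47.8, 38.4 and 13.2 CPM, below mesenchymal cells in every library. The part of free RNA in the *Igfbp3* difference was not tested. Before thinning the shares were 45.8%, 30.6% and 21.4% at median depths of 7972, 5361 and 5679 UMIs. In endothelial and epithelial cells the mutant was below both controls by less than 1.5-fold, at 156 beside 158 CPM and 34.5 beside 41.1 CPM for the lower control. The epithelial log2 ratio changed sign over 9 alternatives, from −1.06 to 0.39, and passed the rule in 2 of them.

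*Igfbp2* followed in the same direction in the mesenchyme with a wider gap between the controls. It was counted at 121 (control 1), 57.7 (control 2) and 32.7 CPM (mutant), 1.76-fold below the lower control. The mutant level was also below that of its red blood cells, at 39.0 CPM from 9 UMIs. The log2 ratio was −1.35 and the gap between the controls 1.07. The mutant was below both controls in 6 of 7 mesenchymal groups and past the rule in 4, the perimysial, osteogenic and progenitor cells and the cells of several subsets. The call was lost when levels were averaged over cells, when cells were thinned to equal depth and when cells were taken from clusters instead of gates. In epithelial cells, where *Igfbp2* is higher, the mutant lay above both controls by 1.14-fold, and in myogenic cells by 1.48-fold.

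*Kazald1* was the gene called higher, at 7.43 CPM in control 1 (5.88 to 9.28), 6.17 in control 2 (4.85 to 7.74) and 20.2 in the mutant (18.5 to 22.1). These levels rest on 78, 75 and 486 UMIs. Both controls were under the minimum of 10 CPM, and the gene passed the filter only through the mutant, so this call is a description and not support. The mutant was 2.72-fold above the higher control, and the log2 ratio was 1.58 beside a gap of 0.27. It was above both controls in 7 of 7 mesenchymal groups, and past the rule in the 2 groups that reached a mean of 10 CPM, osteogenic cells (15.7, 11.4 and 62.1 CPM) and perimysial cells (5.60, 24.7 and 53.7 CPM from 3, 6 and 18 UMIs). In mesenchymal cells without the osteogenic cells and the cells of 2 subsets it was counted at 7.62, 6.68 and 15.5 CPM, 2.04-fold above the higher control but below the minimum level of 10 CPM for a call. The cells that passed a cartilage gate, 20, 23 and 224 in number, held it at 5.23, 13.0 and 65.9 CPM. Red blood cells held 0, 0 and 3 *Kazald1* UMIs, which is 13.0 CPM in the mutant per UMIs other than hemoglobin. Osteogenic cells made up 7.43%, 1.81% and 7.67% of the mesenchymal cells, so the mutant lay just above control 1 and well above control 2. Of all kept cells they made up 4.23%, 0.949% and 3.46%, and cartilage-gated cells 0.972%, 0.623% and 2.98%. The part of cell make-up in the mesenchymal value was not tested beyond the level without osteogenic cells.

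*Igfbp5* lay above both controls in the mutant in 7 of 7 mesenchymal groups, though by less than 1.5-fold in the mesenchyme as a whole. It was counted at 274 CPM in control 1 (264 to 285), 330 in control 2 (320 to 340) and 463 in the mutant (455 to 472), 1.40-fold above the higher control. Red blood cells showed the same order, with 178, 241 and 338 CPM per UMIs other than hemoglobin, from 14, 9 and 78 UMIs. The part of free RNA in the *Igfbp5* difference was not tested. *Igfbp5* passed the rule in progenitor cells, at 126, 318 and 515 CPM, and in perimysial cells, at 474, 804 and 1232 CPM. The perimysial call was kept in 6 of 9 alternatives and lost with stricter gates, with doublets kept and with cells of 2 subsets kept. Dividing mesenchymal cells also passed, with 229, 248 and 427 CPM. Scaling by TMM factors or by totals without mitochondrial, ribosomal and hemoglobin genes brought the mesenchymal value past 1.5-fold. In epithelial cells, its main class, the mutant lay between the controls.

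*Igf1* was lower in the mutant mesenchyme than in both controls by 1.30-fold, short of the rule, with a log2 ratio of −0.41 beside a gap of 0.05 between the controls. In midline cells it passed, at 394, 369 and 233 CPM, 1.59-fold below the lower control, and in tendon cells at 1588, 1402 and 769 CPM, with 2 cells in control 1. The midline levels of control 2 and the mutant were below those of red blood cells, at 482 and 264 CPM per UMIs other than hemoglobin. In perimysial cells the mutant lay between the controls. *Igfbp4* was counted at 782, 562 and 509 CPM in the mesenchyme and passed the rule only in osteogenic cells, among the 7 groups, at 448, 262 and 130 CPM. *Igf1r*, *Igf2r* and *Igfbp7* lay between the controls in all mesenchymal cells and passed in 0 of the 7 groups.

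**Figure D3:**
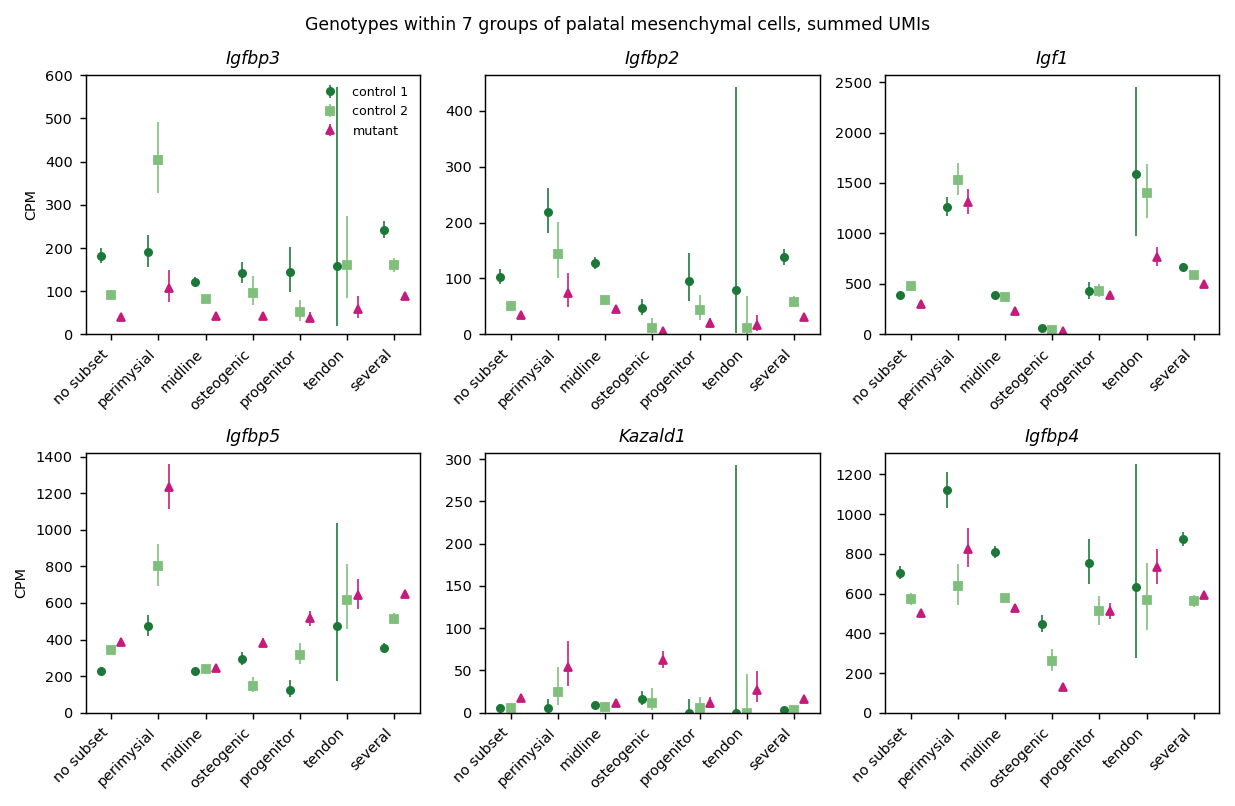
Levels (CPM of summed UMIs) of 6 genes in 7 groups of palatal mesenchymal cells, 1 point for each library with its exact 95% Poisson interval. The mutant point is lowest for *Igfbp3* and highest for *Igfbp5* and *Kazald1* in every group. Tendon cells number 2, 15 and 65, and their intervals are wide.

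The perimysial cells alone gave 2 genes higher (*Igfbp5*, *Kazald1*) and 2 lower (*Igfbp2*, *Igfbp3*) of 9, where 6.28% of 8481 genes were called higher and 12.9% lower at this low number of cells. *Igfbp3* was counted there at 190 CPM in control 1 (155 to 231), 404 in control 2 (328 to 492) and 107 in the mutant (75.2 to 149). No interval overlapped another, and this held between the controls too. The intervals therefore set single libraries apart and not the genotypes. At equal depth 15.7%, 39.5% and 19.3% of perimysial cells had an *Igfbp3* UMI, which puts the mutant between the controls, and no order is read from these shares. *Igfbp2* was counted at 218, 144 and 74.6 CPM, with overlapping intervals of 100 to 201 in control 2 and 48.3 to 110 in the mutant. In epithelial cells 0 of the 8 genes with at least 10 CPM were called, where 0.818% of 8799 genes were higher and 3.9% lower, and *Kazald1* was below the minimum.

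**Figure D4:**
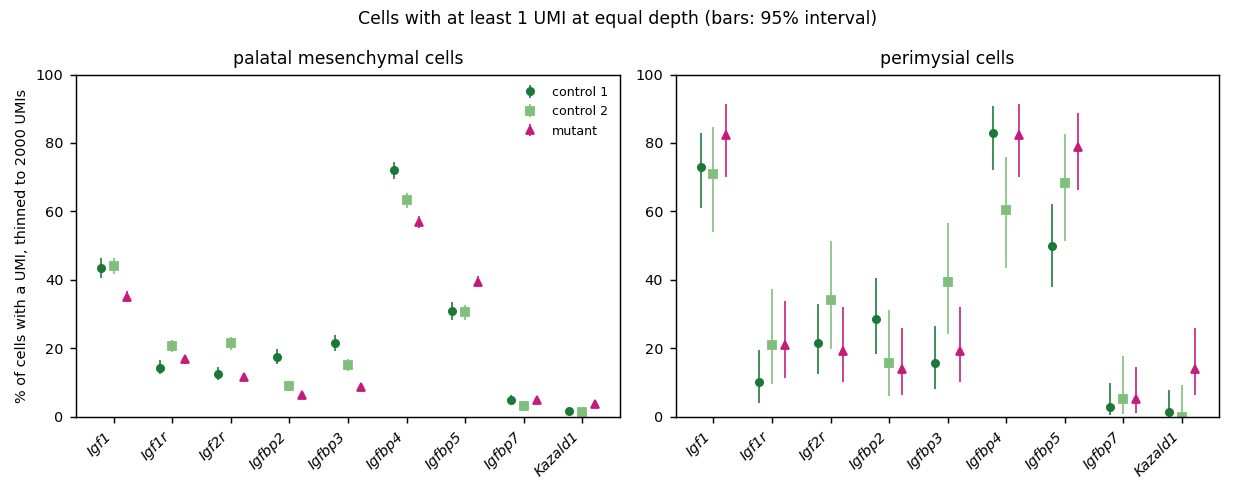
Share of palatal mesenchymal cells and of perimysial cells with at least 1 UMI of each gene after each cell was thinned to 2000 UMIs, with exact 95% Clopper-Pearson intervals that cover counting error only. In mesenchymal cells the mutant is lowest for *Igf1*, *Igf2r*, *Igfbp2*, *Igfbp3* and *Igfbp4* and highest for *Igfbp5*, *Igfbp7* and *Kazald1*. For *Igf2r* and *Igfbp7* it lies close to control 1. In perimysial cells the mutant share of *Igfbp3* lies between those of the controls.

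Beyond the 9 genes, 27 further genes of the axis were read from a fixed list of ligands, binding proteins, proteases, receptors and signaling components. In mesenchymal cells 16 of the 27 reached 10 CPM and 0 were called between the genotypes, beside 0.972% of all genes higher and 2.93% lower, with a median log2 ratio of −0.039. Insulin receptor substrates *Irs1* and *Irs2*, the adaptor *Grb10*, *Pik3r1*, *Akt1* and *Foxo1* were among them. In epithelial cells 0 of 14 were called, beside 0.818% and 3.9% of all genes. In perimysial cells 2 of 16 were called higher and 4 lower, on 1 to 27 UMIs in the mutant and beside 6.28% and 12.9% of all genes. Among the class contrasts, *Foxo1*, a transcription factor that insulin and IGF signaling restrain, was higher in epithelial (1.27, SE 0.16, adjusted p = 1.2e-05) and endothelial cells (1.65, SE 0.21, adjusted p = 6.2e-07) in edgeR. *Irs1* was higher in myogenic cells by 1.18 (SE 0.17, adjusted p = 5.9e-05). In all, 1 of 19 axis genes was higher and 1 lower in epithelial cells (12.2% and 10.4% of all genes), 1 and 8 of 19 in myogenic cells (18.8% and 18.7%), 0 and 8 of 19 in macrophages (23.2% and 19.8%) and 3 and 7 of 17 in endothelial cells (20.5% and 20%). In macrophages 0 axis genes were higher at an unadjusted p under 0.05 in edgeR, and DESeq2 called 1, *Akt1*. The protease *Pappa*, which cleaves IGFBP4, was lower than in mesenchymal cells in epithelial (−0.84), myogenic (−2.51), macrophage (−1.94) and endothelial cells (−3.42), and lower in osteogenic cells (−1.29) than in cells of no subset. Of the axis genes tested in perimysial cells, 1 of 18 was higher, *Grb10* by 0.61 (SE 0.11, adjusted p = 0.0022), and 1 lower, *Ccn1* by −1.12 (SE 0.24, adjusted p = 0.010), beside 1.09% and 0.402% of all genes. In osteogenic cells 1 of 18 was higher and 3 lower, beside 12.1% and 10.2%.

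The genes whose levels were most like those of each gene over 24 sums of cell groups and libraries were found by Pearson correlation of log2(CPM + 10) among 5790 genes. The sums share libraries and depth, and the values are a description. *Igf2r* was most like *Igf2* (r = 0.92), with *Plagl1*, another imprinted gene, among its 3 nearest (r = 0.85). *Igfbp5* was most like *Bcl11b* (r = 0.93) and *Bcl11a* (r = 0.93). *Igf1* was nearest to *Ednra*, the endothelin receptor of facial mesenchyme (r = 0.84), and *Igfbp3* to *Phldb2* (r = 0.87), with the imprinted gene *Peg10* among its 3 nearest (r = 0.85). *Kazald1* was nearest to *Pdzrn4* (r = 0.84) and then to the cartilage genes *Mia* (r = 0.84) and *Col27a1* (r = 0.83).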

How the data were processed

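Soft palates of E14.5 embryos were dissociated and profiled in 2 control and 1 mutant library, and groups were taken from the labels. The authors aligned the reads and counted them with Cell Ranger, and deposited raw UMI counts per gene and barcode for each library, without normalization. The methods give version 4.0.0, and the submitters' processing notes name 3.1.0 and the build mm10. Which version made the files is not settled here. All columns were matched to a library.

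A barcode needed 500 genes and no more than 10% mitochondrial UMIs. Scrublet's own threshold marked 0 barcodes, so the highest scores were removed at 0.8% per 1000 barcodes. Cells were gated by at least 3 distinct markers of a class (2 for mesenchymal cells) or 20% hemoglobin UMIs for red blood cells, a gate that came first. Cells of 2 other classes were left out, and raw counts were summed per group and library. A class needed 20 cells in every library to be fitted. Summed counts were tested in edgeR 4.0.16 (quasi-likelihood, TMM, library as a term, R 4.3.3) with DESeq2 1.42.0 as an alternative, and scripts were tested on simulated data. In simulated mesenchymal cells the fold rule recovered 191 of 200 genes changed 2-fold and called 0 of 8163 unchanged genes. For perimysial cells it recovered 130 of 200 and called 1170 of 8157 unchanged genes, so calls there are weak. The 0 is not a rate of false calls for the real mesenchymal libraries, whose controls lay apart for *Igfbp2* and *Igfbp3*. Levels, ratios and intervals were computed in Python 3.11.15 with scanpy 1.11.5 and scipy 1.17.1. Where a ratio was taken over a count of 0, 3 UMIs were used. Nothing says that the libraries of a group came from separate litters. The p-values measure how differences between cell groups vary over these 3 libraries, after the library term, and that variation may be technical. Likeness was computed over genes with a mean of at least 20 CPM, leaving out the gating markers, and the 3 nearest genes were kept for each gene. Promoter windows were read from a RefSeq table, in which all 9 genes were found. Each gene on the list of members is named. The members, the 27 further genes and the gates were chosen with earlier results of these data known.

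The alternatives were DESeq2 size factors, total UMIs, the DESeq2 test, no filter on low counts, no library term, each library left out, doublets kept, looser cell filters, stricter and looser gates, Leiden clusters in place of gates, TMM-scaled ratios, means over cells, thinning to 2000 UMIs and a fold of 2. The smaller class minimum of 15 cells, the overlapping subset gates and the mesenchyme without osteogenic cells were added after the data had been seen.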

Additional observations from a re-analysis of the deposited data

How the results depend on the processing

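Of 131 recomputed counts of called genes, 108 stayed within 1.5 times the reported count. Of 1120 recomputed values of single genes, 33 moved by more than the spread between the controls, 51 lost and 28 gained a call. Some log2 ratios of the mutant to the controls changed sign. In epithelial cells the *Igf1* ratio was 0.22 to 1.22 in 10 settings and −0.66 in 1. The *Igf1r* ratio there was 0.12 to 0.50 in 10 settings and −0.21 in 1. Without a library term, called genes numbered 4 in epithelial, 3 in myogenic, 1 in perimysial and 2 in osteogenic cells, beside 7, 5, 4 and 5 with it. Leaving out 1 library at a time gave 3 to 8 in epithelial, 2 to 6 in myogenic, 4 to 8 in macrophage, 2 to 5 in perimysial, 0 to 1 in midline and 3 to 5 in osteogenic cells. These fits rest on 2 libraries and fewer residual degrees of freedom. Between the genotypes, leaving out 1 control gave 4 to 5 called genes in mesenchymal, 4 to 5 in perimysial and 1 to 3 in epithelial cells, while the share of all genes called in mesenchymal cells rose from 3.90% to 10.7% and 12.3%. With a fold of 2, mesenchymal and perimysial cells each had 1 called gene. With stricter gates perimysial cells had 2. In epithelial cells the count was 1 when averaged over cells, when thinned, with looser gates and without the filter on low values. The cause of these changes was not tested. The share of all genes called in these settings is given only for mesenchymal cells with 1 control left out. The other counts, and those given above with a library left out, are therefore not read as a result about the genes. *Igfbp3* was past the fold rule in mesenchymal cells in 10 of 10 other settings with log2 ratios from −1.46 to −1.06, *Kazald1* in 9 of 10 and *Igfbp2* in 7 of 10. These settings all kept both controls and the fold of 1.5 and reused the same libraries, so they are not repeated support. In the main setting *Kazald1* passed the filter on low values only through the mutant, and its 9 of 10 is a description and not support. *Igfbp3* did not reach the fold of 2. Its log2 ratios ran from −1.54 to −0.86 over 12 settings that include those with 1 control left out. No paired analysis was possible because the mutant is 1 library and shares 1 replicate number with the controls. Depth limits *Kazald1* in epithelial, myogenic, macrophage and endothelial cells, which held 0 to 42 UMIs in a library, and the perimysial subset, with 41 to 70 cells in a library.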
